A study of Mus musculus with 4 samples.

Results

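The genes described here encode enzymes that add or remove methyl and acetyl groups on histones, together with a few proteins that share their names or complexes. They were picked by gene symbol from the deposited count table: lysine demethylases (Kdm), deacetylases (Hdac), sirtuins (Sirt), SET domain and Mll lysine methyltransferases, arginine methyltransferases (Prmt), Polycomb repressive complex 2 genes and acetyltransferases (Kat). Of 35927 gene rows with counts, 73 matched the name pattern. Kdm1a, Hdac1, Hdac2 and the Y-linked Kdm5d were left out by name, and Kdm4d and Prmt8 held only 6 and 5 counts over all libraries, under the minimum of 40. That left 67 gene rows, and all 67 passed the filter on low counts. The least counted row inside the minimum was Hdac9, with 56 counts. Hdac4 appeared as 2 rows with different Ensembl identifiers, so the 67 rows carried 66 symbols, and 1 row, Kat2b-ps, is annotated as a processed pseudogene of Kat2b.

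RNA was sequenced from erythroid progenitors of mouse fetal liver at E13.5, during embryonic development, on a C57BL/6 strain background, sorted as CD71+ and TER119- with dead cells stained by propidium iodide. CD71 is the transferrin receptor, and TER119 marks later erythroid cells. The mutant group was Rcor1-/- and the control group joined Rcor1+/+ and Rcor1+/- embryos. There were 2 libraries a group, each from the pooled RNA of several livers. The control pools therefore mixed genotypes, in an unstated proportion, and how the Rcor1 allele was made is likewise not given in the sources used here.

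Histone tails are modified by enzymes that work against each other. Methyltransferases and acetyltransferases write a mark, and demethylases and deacetylases erase it. Methylation of lysine 4 or lysine 36 of histone H3 (H3K4, H3K36) is found at active genes, while methylation of H3K9, H3K27 and of lysine 20 of histone H4 (H4K20) is best known from repressed chromatin. Rcor1 encodes CoREST, a scaffold that joins the H3K4 demethylase Kdm1a and the deacetylases Hdac1 and Hdac2 into 1 complex, which in erythroid cells is brought to genes by the repressor Gfi1b.

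Library totals were 25186819 and 15053229 counts in the mutant and 26892375 and 22817080 in the control libraries. Levels below are CPM, that is, counts divided by the effective library size (total times edgeR's TMM factor) and brought to a common scale. A change is a log2 ratio, mutant over control, with its standard error (±), from edgeR's quasi-likelihood test with Benjamini-Hochberg adjustment over 13140 genes, and a gene is said to have risen or fallen where the adjusted p was under 0.05. Rcor1 itself was at 77.9 and 78.9 CPM in mutant libraries, against 159.7 and 174.6 CPM in control libraries. Of 10 erythroid markers, 9 fell and 1 rose, and all were detected in each library. Their summed level was 5018 and 4894 CPM in mutant libraries, against 7253 and 7345 CPM in control libraries. Markers of granulocytes and monocytes (8 of 10 rose, 1 fell; summed level 181 to 188 CPM in mutant and 60.5 to 62.8 in control libraries), megakaryocytes (6 of 8 rose, 1 fell; 343 to 346 and 114 to 117 CPM) and stem and progenitor cells (4 of 5 tested of 7 rose; 250.4 to 257 and 193 to 197 CPM) were higher in the mutant. So were those of hepatoblasts (6 of 7 rose; 1221 to 1231 and 881 to 892 CPM), endothelium (4 of 7 rose; 30.1 to 30.3 and 11.6 to 12.4 CPM) and mesenchyme (6 of 7 rose; 17.7 to 19.5 and 5.09 to 5.59 CPM). Of 5 tested macrophage markers 1 rose, with a summed level of 13.8 to 14.1 CPM in mutant and 11.1 to 11.9 CPM in control libraries. Mast cell and basophil markers summed to 3.10 and 3.56 CPM in mutant libraries, against 0.235 and 0.596 CPM in control libraries, and Cpa3, the 1 tested of 5, rose. Lymphoid markers, none of them tested, summed to 0.642 and 0.445 CPM in mutant libraries, against 0.196 and 0.0459 CPM in control libraries; Mcpt8 and Ebf1 were at 0 counts in mutant libraries, and Fcer1a, Il7r and Cd3e were at 0 counts in control libraries. The part of these other cell types in the changes described here was not tested. In bulk RNA, fewer cells of a type and less RNA per cell cannot be told apart.

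Of the 67 histone enzyme genes, 14 rose and 28 fell in the mutant, and 25 did not pass. Over all 13140 genes tested, 57.5% passed, 28.3% as rises and 29.2% as falls, so the share of members that passed, 62.7%, was near the background. Among the 9181 genes with at least 500 counts over the 4 libraries, a minimum that 65 of the 67 members reach, 25.0% rose and 38.9% fell, and of those 65 members 20% rose and 43.1% fell. The 25.0% and 38.9% are the background for the counts of each class and list below. The members' median log2 fold change was -0.02, beside 0.01 for all genes tested and -0.07 for the well-counted ones. Of the 67 members, 37 passed with a change under 1.5-fold, beside 34.1% of all genes tested and 47.6% of the well-counted ones. No well-counted member passed with a change of at least 2-fold, which 4.89% of well-counted genes reached as rises and 1.17% as falls (11.7% and 1.8% of all genes tested). Hdac9 passed with a larger change, but on 30 and 12 counts in mutant libraries and 6 and 8 in control libraries, so it reached the minimum of 40 through the mutant counts. In 55 of the 67 members the mutant and control libraries did not overlap, beside 77.9% of all genes tested. No called member had overlapping groups, so a gap between the groups adds nothing to a call.

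The direction of small changes depended on how libraries were scaled. When TMM factors were dropped and only library totals kept, the median of all genes moved from 0.01 to 0.15, and 27 members rose and 17 fell, beside 38.9% and 19.4% of all genes. Upper quartile scaling gave 19 rises and 22 falls, beside 33.7% and 23.5% of all genes. The authors' deposited table, whose fold changes sit at a median of 0.15 over its 13234 genes, put 24 members higher and 14 lower at FDR 0.05, beside 37.7% and 17.7% of its genes. Its fold changes differed from those under library totals alone by a median of only 0.001 in size, so it is not a separate check on scaling. Among the 42 calls, 22 held in all 11 other settings (3 other scalings, 2 other count filters, DESeq2, a block for the replicate number, and fits without 1 library). These were 8 rises, of Ezh1, Kdm3a, Hdac11, Hdac6, Kdm6b, Setd7, Setd2 and Mll1, and 14 falls, of Suv420h2, Kdm2b, Kat2a, Prmt1, Setd1b, Prmt5, Ehmt1, Kdm5c, Ehmt2, Sirt6, Hdac3, Prmt6, Kdm4a and Prmt7. In the authors' comparison, which is not among the 11 settings, the falls of Prmt6 (FDR 0.0529), Kdm4a (0.0848) and Prmt7 (0.137) did not reach 0.05. Without mutant replicate 2, 9 members rose and 18 fell, and calls were also fewer over all 13626 genes then tested, at 24.3% and 24%.

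**Figure D1:**
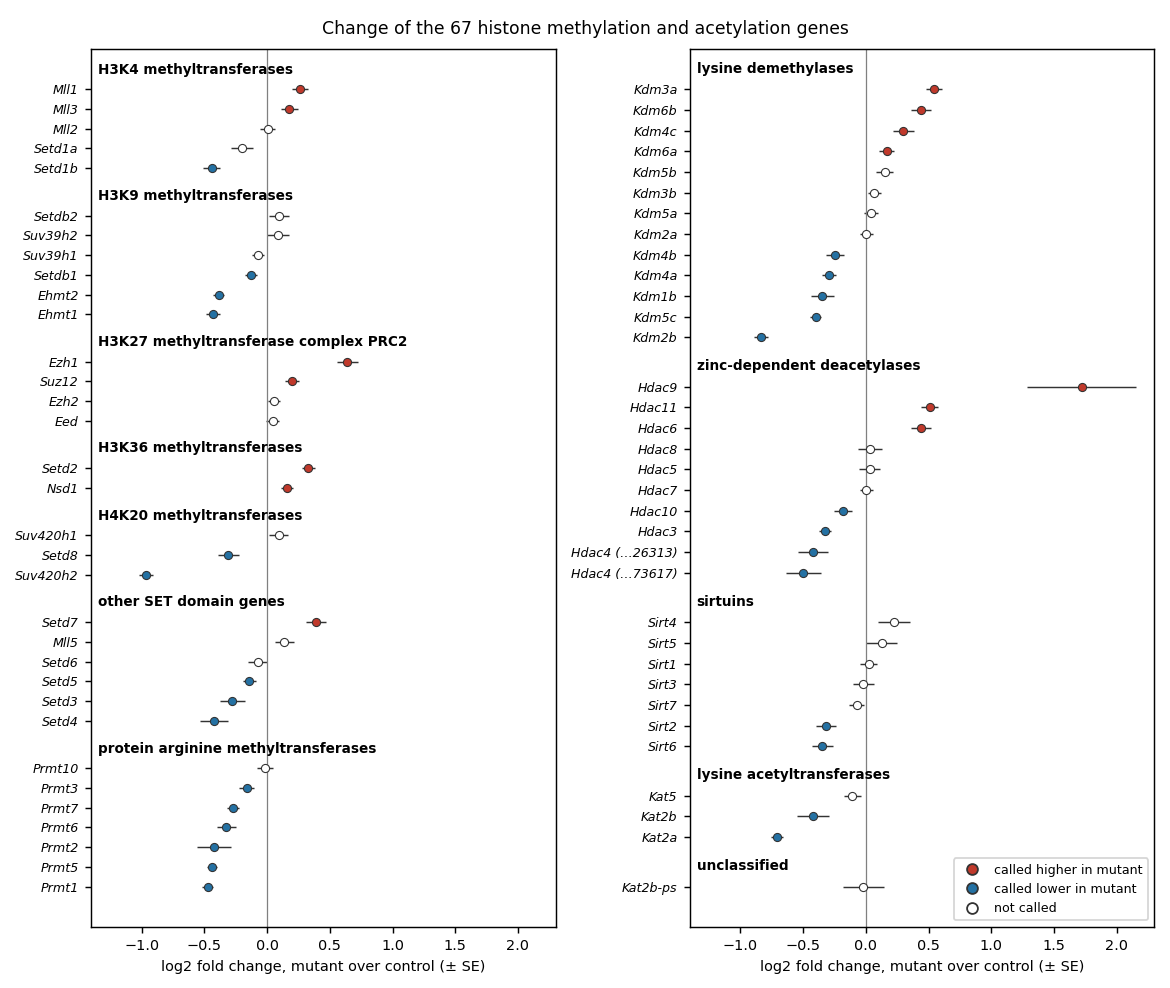
Log2 fold change of mutant over control for each of the 67 members, by enzyme class, on the horizontal axis, with bars for 1 standard error; red points rose, blue points fell and open points did not pass. Most points lie between -0.5 and 0.65, with Suv420h2 (-0.96), Kdm2b (-0.83) and Kat2a (-0.71) furthest to the left and Hdac9 (1.72) furthest to the right.

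**Figure D2:**
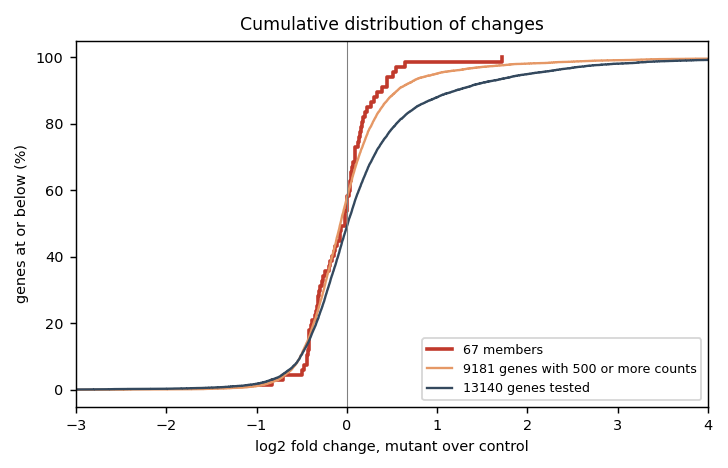
Cumulative share of genes (vertical axis, percent) at or below each log2 fold change (horizontal axis) for the 67 members, for genes with 500 or more counts and for all 13140 genes tested. The members' curve follows that of well-counted genes on the left and lacks the tail of large rises, since only Hdac9 exceeds 1.

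Promoter sequences are shown for the members with the largest falls and rises that held at least 500 counts and a single RefSeq start, as the genes whose starts can be placed without choosing among alternatives. Each covers 250 bases before to 50 after the start, 5′ to 3′ on the gene's strand, from RefSeq on GRCm38.p6; Suv420h2 is listed there as Kmt5c. Suv420h2 lies at chr7:4739877-4740176 (plus strand), Kat2a at chr11:100712418-100712717 (minus strand), Ezh1 at chr11:101226414-101226713 (minus strand) and Hdac11 at chr6:91156565-91156864 (plus strand). Capitals mark matches, on either strand, to the CACCC-type motif CCNCNCCC, the only one found of 4 searched.
Suv420h2: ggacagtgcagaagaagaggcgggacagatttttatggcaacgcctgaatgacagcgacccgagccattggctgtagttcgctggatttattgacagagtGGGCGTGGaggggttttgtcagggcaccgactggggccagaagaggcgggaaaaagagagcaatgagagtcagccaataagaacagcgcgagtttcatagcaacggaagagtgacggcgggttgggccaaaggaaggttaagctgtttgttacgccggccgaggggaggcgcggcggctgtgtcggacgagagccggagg
Kat2a: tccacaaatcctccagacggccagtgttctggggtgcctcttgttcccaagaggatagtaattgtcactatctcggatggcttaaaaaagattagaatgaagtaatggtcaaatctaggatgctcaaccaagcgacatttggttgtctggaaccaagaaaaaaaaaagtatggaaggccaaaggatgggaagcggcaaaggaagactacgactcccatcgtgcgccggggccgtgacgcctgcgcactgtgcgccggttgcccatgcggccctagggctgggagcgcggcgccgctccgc
Ezh1: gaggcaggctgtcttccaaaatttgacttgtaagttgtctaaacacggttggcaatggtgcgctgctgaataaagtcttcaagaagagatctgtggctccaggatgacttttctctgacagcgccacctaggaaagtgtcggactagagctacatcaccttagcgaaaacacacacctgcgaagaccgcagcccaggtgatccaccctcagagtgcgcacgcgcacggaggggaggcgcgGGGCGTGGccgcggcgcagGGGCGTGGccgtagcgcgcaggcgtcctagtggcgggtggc
Hdac11: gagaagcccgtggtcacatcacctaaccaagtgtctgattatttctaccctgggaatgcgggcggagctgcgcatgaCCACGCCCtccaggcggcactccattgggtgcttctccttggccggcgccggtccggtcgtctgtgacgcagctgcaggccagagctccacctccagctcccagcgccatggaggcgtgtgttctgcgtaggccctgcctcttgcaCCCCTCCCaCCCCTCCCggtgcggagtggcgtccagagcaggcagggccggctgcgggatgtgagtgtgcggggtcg
All 4 windows are rich in CpG pairs, with 22 in Suv420h2, 19 in Kat2a, 23 in Ezh1 and 22 in Hdac11. Relative to the number predicted from base composition, CpG content was 1.01 in Suv420h2, 0.864 in Kat2a, 0.882 in Ezh1 and 0.660 in Hdac11. CCNCNCCC matched once in Suv420h2, at no place in Kat2a, at 2 places in Ezh1 and at 3 in Hdac11.

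The RefSeq promoter table held 74 windows for 54 of the 67 members. Their median CpG content was 0.812 of that predicted, beside 0.754 for the 11985 windows of tested genes found there and 0.384 for all 32851 windows. The other motifs, also searched on both strands, were those of GATA and Gfi1 family factors. The GATA motif AGATAA was present in 6.76% of member windows and in 6.68% of the windows of tested genes. Its variant TGATAA was present in 5.41% of member windows and in 4.45% of those of tested genes. For the Gfi1 core, AATCAC, the shares were 8.11% of member windows and 8.21% of those of tested genes, the members included. CCNCNCCC was present in 64.9% of member windows and in 68.0% of those of tested genes. Over all 32851 windows the shares were 11.2% and 9.05% for the GATA motifs, 10.4% for the Gfi1 core and 49.5% for the CACCC-type motif. By these letters, the member windows were close to those of other genes tested in these cells.

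Compared per kilobase of exon (GENCODE M21 lengths on GRCm38, found for 65 of 67 members; the annotation behind the counts may differ), the members' median level was 8.60 CPM per kb in mutant and 7.67 in control cells. All tested genes with a length had medians of 6.47 and 6.21 CPM per kb. Prmt5 was the most abundant per kb, at 79.9 in mutant and 108 in control cells, followed in controls by Ehmt2 (50.3 in mutant and 65.8 in control cells), Prmt7 (51.7 and 62.4) and Suv420h2 (29.1 and 56.8). In that annotation, 51.8% of the exon bases of Setd1a are shared with Gm49388 on the same strand. Kdm3b (24.6%), Prmt6 (23.4%), Hdac4 (22.4%), Suv39h1 (14.6%), Sirt3 (12.7%) and Kat5 (12.1%) share exon bases with genes on the other strand, so counts of these 7 genes, the stable fall of Prmt6 included, are less certain. For Suv420h2, Kat2a, Ezh1 and Hdac11 the share was at most 2.49%. For Kdm2b it was 8.74%, part of it with Gm44574 on the same strand, which adds some uncertainty to its counts. Hdac9 was the scarcest, at 0.0647 in mutant and 0.0205 CPM per kb in control cells.

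Among the H3K4 methyltransferases, Mll1 and Mll3 rose, Setd1b fell, and Setd1a and Mll2 did not pass. Mll1, the founding member of the family and a factor that blood stem cells depend on, was at 73.2 and 81.2 CPM in mutant libraries, against 63.0 and 65.4 CPM in control libraries (0.26 ± 0.07, adjusted p = 0.00275). Setd1b, a catalytic subunit of a COMPASS complex, was at 47.9 and 52.4 CPM in mutant libraries, against 67.2 and 68.9 CPM in control libraries (-0.44 ± 0.07, adjusted p = 4.49e-05). The 2 enzymes thus moved in opposite directions. Mll3, which acts at enhancers, was at 79.8 and 90.3 CPM in mutant and 72.0 and 78.3 CPM in control libraries (0.18 ± 0.07, adjusted p = 0.0372), and its adjusted p was 0.362 without mutant replicate 2 and 0.289 without control replicate 1, in a range from 0.000659 to 0.362. Mll2, listed as Kmt2d in GENCODE M21, was at 137 and 146 CPM in mutant and 133 and 148 CPM in control libraries, where the groups overlapped. Setd1a had a value of -0.20 ± 0.09 (adjusted p = 0.0578).

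The non-catalytic partners of these enzymes were lower more uniformly. Of 11 COMPASS partner genes, 10 fell and none rose, beside 38.9% falls and 25.0% rises among well-counted genes. The middle value was -0.34. Under library totals alone 7 fell, with a median of -0.20. Cxxc1, the CpG-binding subunit of the Setd1 complexes, averaged 178 CPM in mutant and 284 CPM in control libraries (-0.68 ± 0.05, adjusted p = 2.15e-09). Hcfc1, a large scaffold protein, averaged 586 ± 8.30 CPM in mutant and 885 ± 39.3 CPM in control libraries (± SD, n = 2 each). Its change was -0.59 ± 0.04 (adjusted p = 4.50e-09). Rbbp5 was the member that did not pass (-0.06 ± 0.07).

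Of the H3K9 methyltransferases, the euchromatic pair fell clearly, Setdb1 passed as a small fall, and the other 3 did not pass; under library totals alone 2 of the 6 rose, Setdb2 and Suv39h2, and 2 fell. Ehmt1 (GLP) and Ehmt2 (G9a) work as a heterodimer that mono- and dimethylates H3K9. Ehmt2 was at 286 and 266 CPM in mutant libraries, against 362 and 360.0 CPM in control libraries (-0.39 ± 0.05, adjusted p = 1.86e-06). Ehmt1 was at 75.4 and 75.6 CPM in mutant libraries, against 104 and 99.2 CPM in control libraries (-0.43 ± 0.06, adjusted p = 5.03e-06). Both partners were thus lower by a like amount, and the count ratio of Ehmt1 to Ehmt2 overlapped between groups (0.264 and 0.284 in mutant, 0.287 and 0.276 in control libraries). Suv39h1, which trimethylates H3K9 at pericentric repeats, was at 163 and 166 CPM in mutant and 173 and 172 CPM in control libraries (-0.07 ± 0.05, adjusted p = 0.215), and its paralog Suv39h2 had 0.08 ± 0.09. Setdb1, which silences retroelements, had -0.13 ± 0.05 (adjusted p = 0.0274), and lost its call without mutant replicate 1 (0.129), mutant replicate 2 (0.114) or control replicate 1 (0.0627). Its adjusted p ran from 0.00333 to 0.901 over all settings, and its value was 0.01 under library totals alone, the single called member whose sign turned. Setdb2 did not pass (0.09 ± 0.08).

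Polycomb repressive complex 2, which methylates H3K27, showed a rise of its minor catalytic subunit. Ezh1, the paralog of Ezh2 that is used more in resting and differentiated cells, was at 37.4 and 40.5 CPM in mutant libraries, against 23.5 and 26.4 CPM in control libraries (0.64 ± 0.09, adjusted p = 7.32e-06). Ezh2, the subunit of dividing cells, was at 241 and 247 CPM in mutant and 229.9 and 239 CPM in control libraries (0.06 ± 0.05, adjusted p = 0.309). Ezh1 counts were thus 0.155 and 0.164 of Ezh2 counts in mutant libraries and 0.102 and 0.110 in control libraries, a ratio that no scaling can move. Suz12, a core subunit, rose (175 and 186 CPM in mutant, 150.0 and 165 CPM in control libraries; 0.20 ± 0.05, adjusted p = 0.00499), but its adjusted p was 0.0696 without mutant replicate 2 and 0.0742 without control replicate 1, in a range from 2.81e-06. Eed, the subunit that reads the mark, did not pass (0.04 ± 0.05). Both Ezh2 and Eed passed as rises under upper quartile scaling and library totals alone.

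Of 7 further PRC2 partner genes, 2 rose, 3 fell and 2 did not pass (median -0.02), beside 25.0% rises and 38.9% falls among well-counted genes. Under library totals alone, 3 rose and 1 fell. Phf19, a Polycomb-like subunit that binds H3K36 methylation, had the largest change (-0.94 ± 0.08, adjusted p = 5.56e-08). It averaged 18.6 ± 0.787 CPM in mutant and 35.7 ± 1.22 CPM in control libraries (± SD, n = 2 each). Jarid2, which binds nucleosomes within the complex, fell by less (-0.24 ± 0.06, adjusted p = 0.00306; 0.16 under library totals alone, in a range from 2.33e-05). Rbbp7 rose (0.25 ± 0.05), and Mtf2, another Polycomb-like subunit, rose (0.18 ± 0.07, adjusted p = 0.0333) but its adjusted p was 0.18 without mutant replicate 2 and 0.257 without control replicate 1, in a range from 0.000707 to 0.257.

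Both H3K36 methyltransferases among the members rose. Setd2, the enzyme of H3K36 trimethylation on transcribed genes, was at 171 and 180.1 CPM in mutant libraries, against 135 and 144 CPM in control libraries (0.33 ± 0.05, adjusted p = 3.45e-05). Nsd1, which dimethylates H3K36, was at 303 and 315 CPM in mutant libraries, against 268 and 286 CPM in control libraries (0.16 ± 0.05, adjusted p = 0.00861). The Nsd1 call was lost without mutant replicate 2 and without control replicate 1.

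Suv420h2, which trimethylates H4K20 in constitutive heterochromatin, had the largest fall of any member. It was at 122 and 111 CPM in mutant libraries, against 235 and 219 CPM in control libraries (-0.96 ± 0.06, adjusted p = 2.82e-10). Its paralog Suv420h1, the main H4K20 dimethylase, was at 47.8 and 48.8 CPM in mutant and 46.1 and 44.6 CPM in control libraries (0.09 ± 0.07, adjusted p = 0.296). Suv420h2 counts were therefore 2.55 and 2.27 times those of Suv420h1 in mutant libraries and 5.11 and 4.92 times in control libraries. Setd8, which monomethylates H4K20 and provides the substrate of both, was at 30.0 and 28.2 CPM in mutant and 38.2 and 34.1 CPM in control libraries (-0.31 ± 0.08, adjusted p = 0.00502). Its call was lost under library totals alone (0.092) and without mutant replicate 2 (0.0547), in a range from 6.52e-05.

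The remaining SET domain genes gave 1 rise and 3 falls (2 rises and 1 fall under library totals alone), and Mll5 (0.14 ± 0.08) and Setd6 (-0.07 ± 0.08) did not pass. Setd7, a methyltransferase of H3K4 and of many other proteins, was at 40.1 and 44.9 CPM in mutant libraries, against 31.3 and 33.4 CPM in control libraries (0.39 ± 0.08, adjusted p = 0.000674). Setd4 was at 13.7 and 10.7 CPM in mutant and 16.6 and 16.7 CPM in control libraries (-0.42 ± 0.11, adjusted p = 0.0046; 0.0868 without mutant replicate 2, in a range from 5.32e-05). Setd3, known as the histidine methyltransferase of actin, had -0.28 ± 0.10 (adjusted p = 0.0255), and Setd5 had -0.14 ± 0.05 (adjusted p = 0.0303). The Setd3 call was lost without mutant replicate 1 (0.188), mutant replicate 2 (0.058) or control replicate 2 (0.101), in a range from 0.00934 to 0.248. The Setd5 call was lost without mutant replicate 1 (0.119), mutant replicate 2 (0.146) or control replicate 2 (0.165), in a range from 0.00309 to 0.957.

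Of the 7 arginine methyltransferases, 6 fell, none rose, and Prmt10 did not pass (-0.02 ± 0.07), beside 38.9% falls and 25.0% rises among well-counted genes. DESeq2 called 4 of them lower. Under library totals alone 4 fell and none rose, and the class median moved from -0.32 to -0.19. Prmt1, the main enzyme of asymmetric arginine dimethylation, was at 244 and 255 CPM in mutant libraries, against 336 and 356 CPM in control libraries (-0.47 ± 0.05, adjusted p = 1.71e-07). Prmt5, the main enzyme of symmetric dimethylation, was at 318 and 315 CPM in mutant libraries, against 436 and 422 CPM in control libraries (-0.44 ± 0.04, adjusted p = 1.61e-07). These abundant transcripts fell by similar amounts. Prmt7, which monomethylates arginine, was at 308 and 326 CPM in mutant and 374 and 390.0 CPM in control libraries (-0.27 ± 0.05), and Prmt6, which acts on histone H3, at 50.3 and 45.6 CPM in mutant and 62.5 and 57.9 CPM in control libraries (-0.32 ± 0.08). The scarce Prmt2 was at 6.65 and 5.98 CPM in mutant and 8.41 and 8.67 CPM in control libraries (-0.42 ± 0.13, adjusted p = 0.0123), and its adjusted p was 0.0776 without mutant replicate 2, in a range from 0.00326 to 0.11. Prmt3, which methylates a ribosomal protein, had -0.16 ± 0.06 (adjusted p = 0.028), and its adjusted p was 0.345 without mutant replicate 1, in a range from 0.00223 to 0.739.

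Lysine demethylases split in direction, with 4 rises, 5 falls and 4 genes that did not pass. Among well-counted genes, 25.0% rose and 38.9% fell. Under library totals alone there were 8 rises and 3 falls among these demethylases. Kdm2b, a CpG island-binding H3K36 demethylase that brings a variant Polycomb complex to unmethylated DNA, was at 71.5 and 69.8 CPM in mutant libraries, against 124 and 129 CPM in control libraries (-0.83 ± 0.05, adjusted p = 1.04e-09). Its paralog Kdm2a was at 125 and 123 CPM in mutant and 128 and 121 CPM in control libraries (0.00 ± 0.05, adjusted p = 0.978), so the count ratio of Kdm2b to Kdm2a was 0.570 and 0.566 in mutant libraries, against 0.969 and 1.07 in control libraries. Kdm3a, an H3K9 demethylase and a known target of hypoxia signalling, was at 84.9 and 85.4 CPM in mutant libraries, against 55.4 and 61.6 CPM in control libraries (0.54 ± 0.07, adjusted p = 2.08e-06). Its paralog Kdm3b had 0.07 ± 0.05 (adjusted p = 0.294). Within both of these pairs, 1 paralog passed and the other did not. The count ratios of the groups were apart, but so were those of 9 of the 10 paralog pairs compared. These included Suv39h2 to Suv39h1, of which neither gene passed. Of the H3K27 demethylases, Kdm6b was at 42.6 and 40.02 CPM in mutant libraries, against 30.2 and 30.8 CPM in control libraries (0.44 ± 0.08, adjusted p = 0.000132), and Kdm6a had 0.17 ± 0.06 (adjusted p = 0.0305). Kdm6a lost its call with any 1 library left out (0.163 and 0.0636 without mutant replicates 1 and 2, 0.171 and 0.0572 without control replicates 1 and 2), in a range from 0.000422.

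The Kdm4 genes, which act on trimethylated H3K9 and H3K36, moved both ways. Kdm4a was at 94.3 and 103 CPM in mutant libraries, against 123 and 119 CPM in control libraries (-0.30 ± 0.06, adjusted p = 0.000215), and Kdm4b had -0.25 ± 0.07 (adjusted p = 0.00913; 0.103 without mutant replicate 2, in a range from 0.00013 to 0.226). Kdm4c was at 31.3 and 33.7 CPM in mutant and 26.1 and 26.6 CPM in control libraries (0.30 ± 0.08, adjusted p = 0.00487; 0.06 without mutant replicate 2, in a range from 0.000166). Of the H3K4 demethylases, Kdm1b, the paralog of the CoREST enzyme Kdm1a, was at 17.7 and 19.2 CPM in mutant and 22.4 and 24.4 CPM in control libraries (-0.35 ± 0.09, adjusted p = 0.0033; 0.0697 without mutant replicate 1, in a range from 0.000214). Kdm5c was at 249.9 and 257 CPM in mutant libraries, against 339.8 and 328 CPM in control libraries (-0.40 ± 0.04, adjusted p = 8.17e-07). The autosomal Kdm5a (0.04 ± 0.05) and Kdm5b (0.15 ± 0.07, adjusted p = 0.0789) did not pass. Kdm1a, left out of the members as a CoREST enzyme, had -0.31 ± 0.05, so the fall of Kdm1b was of like size.

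Kdm5c, Kdm6a, Suv39h1, Hdac6 and Hdac8 are the X-linked members, and pools of embryos can differ in their mix of sexes. Kdm5d, the Y-linked partner of Kdm5c, was at 26.9 and 27.1 CPM in mutant libraries, against 21.8 and 22.7 CPM in control libraries (0.28 ± 0.08, adjusted p = 0.00748; 0.0672 with DESeq2, in a range from 0.000274). Xist, the transcript of the inactive X chromosome, was at 244 and 244 CPM in mutant libraries, against 97.4 and 97.1 CPM in control libraries (1.33 ± 0.05, adjusted p = 4.06e-13). Xist and Kdm5d were thus both higher in the mutant. The 574 tested X-linked genes had a median of 0.12. The part of the sex mix in the changes of Kdm5c, Kdm6a and Hdac6 was not tested.

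**Figure D3:**
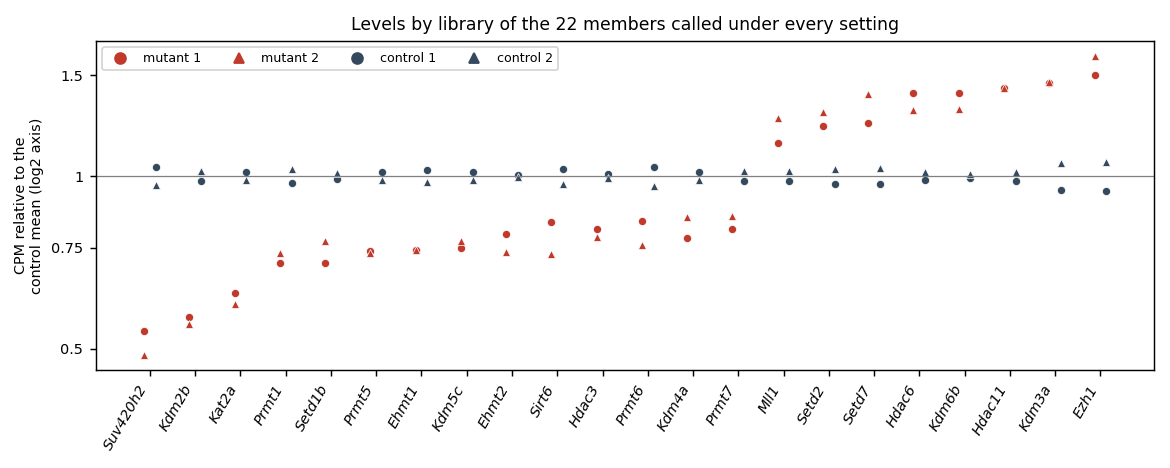
CPM of each library divided by the control mean of that gene (vertical log2 axis) for the 22 members called in all settings, ordered by fold change; red marks are mutant and dark marks control libraries, circles replicate 1 and triangles replicate 2. The mutant marks of each gene sit together, below the control marks from Suv420h2 to Prmt7 and above them from Mll1 to Ezh1.

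**Figure D4:**
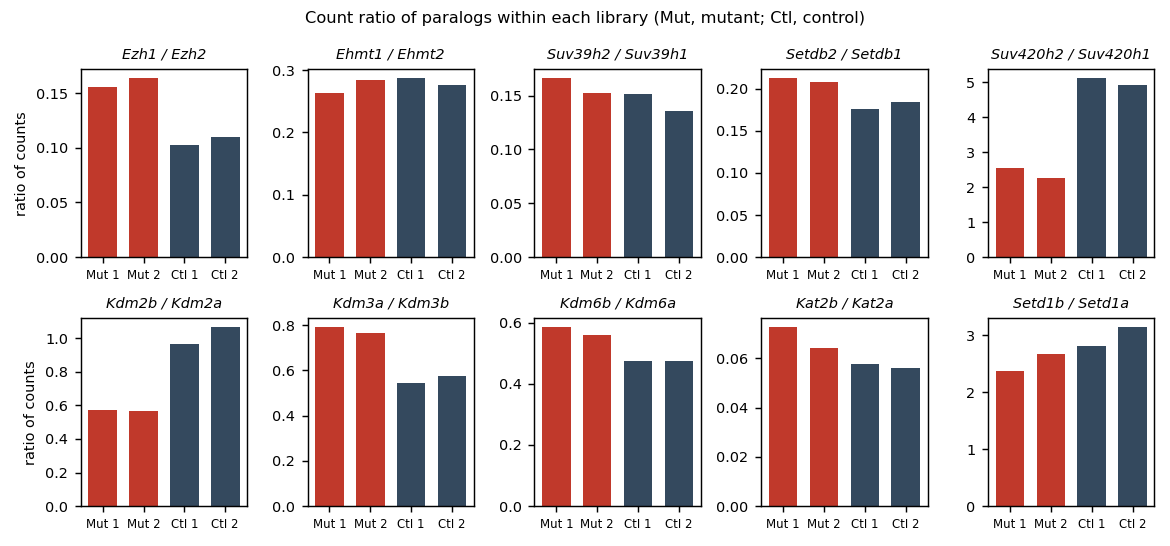
Ratio of the counts of named paralogs within each library (vertical axis), mutant libraries in red and control libraries in dark. The groups were apart in 9 of the 10 pairs. The ratio Suv420h2 to Suv420h1 is 2.55 and 2.27 in mutant and 5.11 and 4.92 in control libraries, and that of Kdm2b to Kdm2a 0.570 and 0.566 in mutant and 0.969 and 1.07 in control libraries, while the Ehmt1 to Ehmt2 bars overlap between groups.

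Levels per kilobase of exon were summed over member writers and erasers of a mark, as a description with no test. The sums use TMM-scaled CPM only, so small gaps or overlaps between groups can depend on that scaling. The sums leave out Setd7, Kdm1a, Kdm5d and genes outside the name pattern, such as Ash1l, Whsc1 and Whsc1l1. H3K36 writers (Setd2 and Nsd1) summed to 33.2 and 34.7 CPM per kb in mutant libraries, against 27.9 and 29.7 in control libraries. H3K36 erasers (Kdm2a, Kdm2b and Kdm4a to Kdm4c) summed to 47.6 and 48.0 CPM per kb in mutant libraries, against 57.7 and 57.5 in control libraries. Both H3K36 writers rose, while of the 5 erasers Kdm2b, Kdm4a and Kdm4b fell, Kdm4c rose and Kdm2a did not pass. The lower eraser sum came mostly from Kdm2b (6.501 CPM per kb in mutant and 11.6 in control cells) and Kdm4a (17.0 and 20.9). H3K4 writers (the Mll and Setd1 genes above) summed to 22.1 and 23.9 CPM per kb in mutant libraries and to 23.1 and 24.1 in control libraries, which overlapped under TMM scaling. H3K4 erasers (Kdm1b and the 3 Kdm5 members) summed to 50.4 and 52.6 CPM per kb in mutant libraries, against 63.5 and 62.7 in control libraries. That lower sum came mostly from the X-linked Kdm5c (35.7 CPM per kb in mutant and 47.0 in control cells), while Kdm5a and Kdm5b did not pass.

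For H3K9, writers summed to 129 and 126 CPM per kb in mutant libraries, against 149.9 and 148 in control libraries. The lower writer sum came mostly from Ehmt2 (50.3 CPM per kb in mutant and 65.8 in control cells). Under TMM scaling, the H3K9 eraser sums (50.2 and 51.4 in mutant, 51.4 and 52.4 in control libraries) nearly met. For H3K27, the sum of Ezh1 and Ezh2 was 41.1 and 42.5 CPM per kb in mutant and 37.6 and 39.4 in control libraries, and that of Kdm6a and Kdm6b was 14.8 and 14.3 in mutant and 11.95 and 12.2 in control libraries. Both sides of H3K27 were therefore higher in the mutant on this scale. RNA levels of the enzymes do not give the level of any mark, which was not measured.

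**Figure D5:**
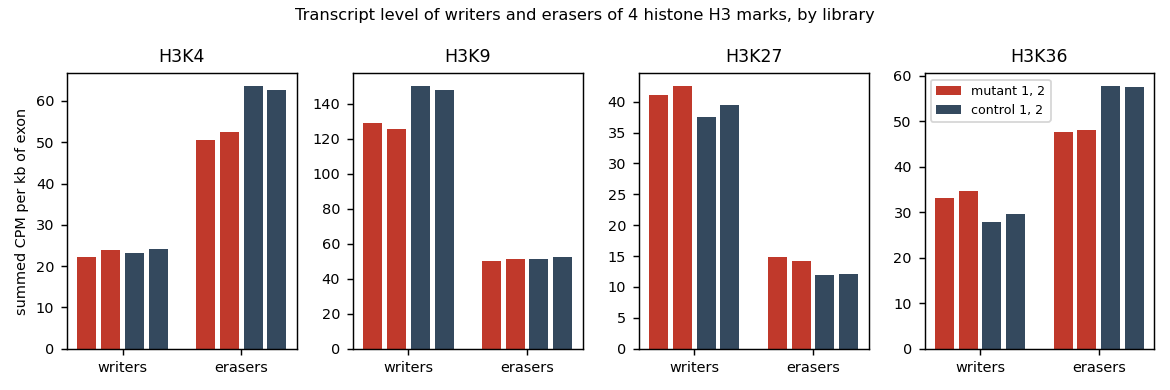
Summed TMM-scaled CPM per kilobase of exon (vertical axis, from 0) of member writers and erasers of 4 histone H3 marks. Each library is a bar, mutant in red and control in dark. The H3K4 and H3K36 erasers and the H3K9 writers are lower in both mutant bars, and the H3K36 writers and both H3K27 sides are higher.

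Among the zinc-dependent deacetylases outside CoREST, 3 rose, 4 rows fell and 3 genes did not pass (4 rises and 3 falls under library totals alone). Among well-counted genes, 25.0% rose and 38.9% fell. Hdac3, the catalytic subunit of the NCoR corepressor complexes, was at 141 and 137 CPM in mutant libraries, against 176 and 173 CPM in control libraries (-0.33 ± 0.05, adjusted p = 1.78e-05). For comparison, the CoREST deacetylase Hdac2 had -0.26 ± 0.05 and Hdac1 -0.02 ± 0.13. Hdac11, the single class IV enzyme, was at 67.5 and 67.6 CPM in mutant libraries, against 46.6 and 48.3 CPM in control libraries (0.51 ± 0.07, adjusted p = 6.69e-06). Hdac6, a mainly cytoplasmic enzyme that deacetylates tubulin, was at 38.6 and 36.1 CPM in mutant libraries, against 27.2 and 28.1 CPM in control libraries (0.44 ± 0.08, adjusted p = 0.00018). Both rises held in all 11 other settings. Hdac9, a class IIa enzyme, had 30 and 12 counts in mutant libraries and 6 and 8 counts in control libraries (1.72 ± 0.43, adjusted p = 0.00271). Its call was lost without mutant replicate 1 (0.0924), without control replicate 1 (0.0527) and with DESeq2 (0.0756), in a range from 0.000465.

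The other class IIa genes did not share that direction. The first Hdac4 row (ENSMUSG00000026313) was at 9.48 and 11.1 CPM in mutant and 13.02 and 14.4 CPM in control libraries (-0.42 ± 0.12, adjusted p = 0.00535), and its adjusted p was 0.127 without mutant replicate 1, in a range from 0.000274. The second row (ENSMUSG00000073617) had -0.50 ± 0.14 (adjusted p = 0.00558), and its adjusted p was 0.0626 without mutant replicate 2, in a range from 0.000341. Hdac5 (0.03 ± 0.08) and Hdac7 (0.00 ± 0.05) did not pass, nor did the class I enzyme Hdac8 (0.04 ± 0.10). Hdac10, a polyamine deacetylase, had -0.18 ± 0.07 (adjusted p = 0.0329), and lost its call without mutant replicate 1 (0.0736), mutant replicate 2 (0.14) or control replicate 1 (0.16), in a range from 0.00346 to 0.592.

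A list of 14 deacetylase corepressor subunits was not limited to partners of the enzymes above. Of these genes, 9 fell, 2 rose and 3 did not pass (median -0.19), beside 38.9% falls and 25.0% rises among well-counted genes. Under library totals alone 6 fell and 2 rose. Ncor1, a scaffold for Hdac3, averaged 269.6 ± 9.56 CPM in mutant and 242 ± 7.26 CPM in control libraries (± SD, n = 2 each). Its change was 0.15 ± 0.05 (adjusted p = 0.00946). The Ncor1 rise had an adjusted p of 0.103 without mutant replicate 2 and 0.0803 without control replicate 1, in a range from 2.46e-05 to 0.103. Mta2, a NuRD subunit, fell (-0.55 ± 0.05, adjusted p = 1.07e-07). Tbl1xr1, a subunit of the NCoR complexes, had 0.18 ± 0.07 (adjusted p = 0.0337), which was lost without mutant replicate 1 (0.171), mutant replicate 2 (0.0782) or control replicate 1 (0.451), in a range from 0.000597 to 0.451.

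Of the 7 sirtuins, the NAD-dependent deacylases, 2 fell, none rose and 5 did not pass, while under library totals alone 1 fell and 1, Sirt4, rose. Among well-counted genes, 38.9% fell and 25.0% rose. Sirt6, a nuclear enzyme that deacetylates histone H3, was at 34.0 and 29.9 CPM in mutant libraries, against 42.1 and 39.6 CPM in control libraries (-0.35 ± 0.08, adjusted p = 0.00192). Sirt2, a mainly cytoplasmic enzyme, was at 58.4 and 50.6 CPM in mutant libraries, against 71.2 and 65.0 CPM in control libraries (-0.32 ± 0.08, adjusted p = 0.00232; 0.0565 under library totals alone, in a range from 6.41e-08). The other nuclear enzymes, Sirt1 (0.02 ± 0.07) and Sirt7 (-0.07 ± 0.06), and the mitochondrial Sirt3 (-0.02 ± 0.09), Sirt4 (0.22 ± 0.13) and Sirt5 (0.13 ± 0.13) did not pass.

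Of the 3 acetyltransferase genes, Kat2a and Kat2b fell and Kat5 did not pass (-0.11 ± 0.07). Kat2a (GCN5), the catalytic subunit of the SAGA and ATAC complexes, was at 109.6 and 105 CPM in mutant libraries, against 178 and 173 CPM in control libraries (-0.71 ± 0.05, adjusted p = 3.00e-09). Its scarcer paralog Kat2b (PCAF) was at 7.97 and 6.74 CPM in mutant and 10.3 and 9.68 CPM in control libraries (-0.42 ± 0.13, adjusted p = 0.01; 0.0887 without mutant replicate 2, in a range from 0.00117). Reads of the pseudogene row Kat2b-ps, at 4.12 and 4.58 CPM in mutant and 4.30 and 4.45 CPM in control libraries, could not be told apart from Kat2b with certainty, since how shared reads were counted is not stated. Tada3, an adaptor shared by the Kat2a complexes, averaged 24.6 ± 0.358 CPM in mutant and 41.7 ± 0.657 CPM in control libraries (± SD, n = 2 each). Its change was -0.76 ± 0.08 (adjusted p = 3.44e-07).

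Among 20 acetyltransferase and partner genes whose symbols fall outside the name pattern, 8 fell, 2 rose and 10 did not pass (median -0.10). The share of falls, 40%, was near the 38.9% of well-counted genes, of which 25.0% rose. Under library totals alone, 4 of the 20 fell and 5 rose. Brpf3, a subunit of the MOZ and HBO1 acetyltransferase complexes, averaged 77.0 ± 0.451 CPM in mutant and 154 ± 2.61 CPM in control libraries (± SD, n = 2 each). Its change was -1.002 ± 0.05 (adjusted p = 5.01e-11). Myst4, the MORF acetyltransferase, averaged 16.2 ± 1.35 CPM in mutant and 9.93 ± 0.101 CPM in control libraries (± SD, n = 2 each). Its change was 0.70 ± 0.11 (adjusted p = 3.52e-05). Brd1 was the other rise (0.18 ± 0.06, adjusted p = 0.0143), lost without mutant replicate 2 (0.164) and control replicate 1 (0.0756), in a range from 0.000111 to 0.164. The general coactivators Ep300 (-0.11 ± 0.05, adjusted p = 0.0672) and Crebbp (0.27 ± 0.18, adjusted p = 0.274) did not pass.

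Of 15 methylation genes outside the pattern, 7 fell, 3 rose and 5 did not pass (median -0.18), beside 38.9% falls and 25.0% rises among well-counted genes. Under library totals alone, 6 fell and 3 rose. Smyd2, a lysine methyltransferase, averaged 99.5 ± 1.80 CPM in mutant and 159 ± 1.85 CPM in control libraries (± SD, n = 2 each). Its change was -0.68 ± 0.05 (adjusted p = 5.29e-09), and Fbxl19, a CpG-binding relative of Kdm2b, had -0.49 ± 0.06. Carm1, the arginine methyltransferase also known as Prmt4, fell like most of its family (-0.47 ± 0.05, adjusted p = 3.42e-07). Ash1l (0.34 ± 0.08), another H3K36 methyltransferase, rose, as did Prdm2 (0.23 ± 0.06) and Whsc1, a relative of Nsd1 (0.12 ± 0.05, adjusted p = 0.0414). Whsc1l1, a further relative of Nsd1, did not pass (-0.10 ± 0.05, adjusted p = 0.0946). The Whsc1 call was lost without mutant replicate 2 (0.364) and without control replicate 1 (0.24), in a range from 0.000117 to 0.364.

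Readers of these marks and enzymes of cofactor supply also changed in both directions. Of 10 tested reader genes, 5 fell and 1 rose (median -0.24), beside 38.9% falls and 25.0% rises among well-counted genes. Under library totals alone, 4 readers fell and 1 rose. Cbx2, a Polycomb reader, had the largest fall (-1.74 ± 0.14, adjusted p = 1.19e-08). It averaged 3.88 ± 0.545 CPM in mutant and 13.3 ± 0.391 CPM in control libraries (± SD, n = 2 each). Its family member Cbx7 was the rise (0.41 ± 0.13, adjusted p = 0.0157). The Cbx7 call was lost without mutant replicate 1 (0.242) and control replicate 2 (0.064), in a range from 8.31e-06 to 0.242. A further list held genes for the supply of S-adenosylmethionine, acetyl-CoA and NAD, and also Idh1, which makes none of these directly. Of its 10 tested genes, 5 fell and 2 rose, against 3 and 4 under library totals alone. The same background of 38.9% falls and 25.0% rises applies. Idh1 averaged 39.8 ± 0.764 CPM in mutant and 23.6 ± 0.723 CPM in control libraries (± SD, n = 2 each). Its change was 0.75 ± 0.08 (adjusted p = 4.80e-07). Nampt, the rate-limiting enzyme of NAD salvage, had 0.30 ± 0.06. Nmnat3 (-0.55 ± 0.05), an NAD-forming enzyme, and Ahcy (-0.41 ± 0.09), which clears the product of methylation reactions, fell.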

How the data were processed

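The submitters' processing notes name FastQC, Bowtie, edgeR and the mm9 build; the counter, versions, strand setting and treatment of shared reads are unstated, so overlapping genes and near-identical copies are uncertain. The authors deposited whole-number counts per gene. They also deposited their own comparison, whose columns hold a log2 fold change, a p-value and an adjusted p-value per the file headers. Columns named WT were taken as the control samples of the same number. Of 35939 rows, 12 with NA in all libraries were left out.

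The count fit used edgeR 4.0.16 (R 4.3.3): filterByExpr, TMM (factors 0.951 to 1.05), estimateDisp, robust glmQLFit, two-sided glmQLFTest, Benjamini-Hochberg adjustment over 13140 genes, threshold 0.05. Standard errors were derived from the fold change and its F statistic. The common dispersion was 0.00232. Ratios and sums are given by library, with no test run on them. Replicates, which pool several livers each, differed by more than counting error (chi-square per gene 3.67 between mutant and 5.76 between control libraries).

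The members and lists were chosen with earlier results of these data known. Genes named were up to 3 called rises and 3 called falls of each enzyme class and up to 2 of each pathway list, with the other members by value or count, and some of the genes so picked are left unreported. Carm1, Whsc1, Whsc1l1, Rbbp5, Ep300, Crebbp, Xist and Kdm5d, the paralog ratios and the minimum of 500 counts were chosen after values were seen. Alternatives were RLE, upper quartile and library total scaling, a minimum of only 1 count, a level above 1 CPM in at least 2 libraries, DESeq2 1.42.0, a replicate block and each library left out, which leaves a lone library assumed to vary like the others.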

Additional observations from a re-analysis of the deposited data

How the results depend on the processing

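Members called higher were 14, and from 9 to 13 when 1 library was left out; members called lower were 28, and from 18 to 27. The lowest counts of both were without mutant replicate 2. With library totals alone, 27 members rose and 17 fell, and 2553 genes in all were called lower, against 3835 with TMM. The members' median of -0.02 turned to 0.116 with library totals alone and to 0.0553 with upper quartile scaling; it was -0.0592 with no filter beyond 1 count, and from -0.0743 to -0.0547 with 1 library left out. Setdb1 turned from -0.13 to 0.00765 with library totals alone. With the replicate number as a block, 16 members rose and 29 fell (4135 and 4267 genes in all); the numbers were not shown to pair the libraries (the correlation of same-numbered deviations was 0.12, over 2 pairs). DESeq2 called 11 members higher and 19 lower. Of the 42 called members, 22 kept their call and direction in all 11 alternatives, and the cause of the other changes was not tested. Hdac9, with 56 counts, is the member most limited by depth.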
